A study of Mus musculus with 2 samples.

Results

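Iron transport and storage genes encode the proteins that bring iron into a cell, hold it in ferritin, oxidise and export it, and sense how much of it is present. The 10 genes were Slc40a1, Tfrc, Fth1, Ftl1, Slc11a2, Ireb2, Aco1, Heph, Cp and Steap3, taken as the probe sets whose annotated gene symbol was exactly one of these names. Each had 1 such probe set, so 10 of the 21789 probe sets with a single symbol, and 10 of 19938 genes, are described. The group was chosen by a measured value, since the high difference of Slc40a1 in these same arrays was known when it was put together. The difference of Slc40a1 is therefore given as a description.

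The cells were primary myoblasts, the dividing progeny of muscle stem cells, from mice with floxed Mll1 alleles (MLL1 fl/fl) and the tamoxifen-inducible Rosa-CreER recombinase, and both cultures came from 1 myoblast line. The MLL1 KO culture was grown with 500 nM 4-OHT (4-hydroxytamoxifen, which lets CreER enter the nucleus) in 0.01% ethanol for 7 days, and the Control culture with 0.01% ethanol alone for 7 days. Harvest came after 3 further days in medium with neither drug nor ethanol, as the labels have it, whereas the methods text describes a shorter washout. Both cultures had medium with 20% serum and 5 ng/ml FGF. Total RNA of each culture was hybridised to 1 Affymetrix MoGene 1.0 ST array. Only the MLL1 KO culture had received 4-OHT, so an effect of the drug itself and an effect of the deletion cannot be told apart. With 1 array per condition there is no replicate error, no test was possible, and every difference below compares these 2 arrays.

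The values are log2 signals after RMA, a method that corrects background, makes the arrays comparable and gives 1 value per probe set. A difference is the signal of MLL1 KO minus that of Control, and 1 log2 unit is 2-fold, the cut-off of the study's methods. Signals of different probe sets do not rank genes by the amount of their mRNA, since probes differ in brightness. The median log2 signal of the 28944 probe sets that were not array controls was 5.74 in MLL1 KO and 5.77 in Control. Kmt2a, which encodes MLL1, had log2 signals of 9.66 in MLL1 KO and 9.44 in Control. Its probe set is not known from the sources used here to be limited to the deleted exons, and does not check the deletion. The study assessed the deletion at the RNA level by RT-qPCR and reports loss of the MLL1 protein. Its supplement also plots array fold changes along the Mll1 transcript, with the floxed exons marked. Values at that resolution were not read here.

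As background, transferrin-bound iron enters a cell through the transferrin receptor (Tfrc), is reduced in the endosome by the ferrireductase STEAP3 and leaves the endosome through the transporter DMT1 (Slc11a2). Ferritin, a shell of heavy (Fth1) and light (Ftl1) chains, stores the iron, and ferroportin (Slc40a1) is the exporter of iron from vertebrate cells. The multicopper oxidases hephaestin (Heph) and ceruloplasmin (Cp) oxidise the exported iron so that transferrin can bind it. The iron regulatory proteins IRP1 (Aco1) and IRP2 (Ireb2) bind iron-responsive elements, RNA hairpins in several of these mRNAs. In iron-poor cells they block the translation of ferritin and ferroportin mRNA and stabilise Tfrc mRNA, so much of the control in this pathway acts after transcription. The arrays measured mRNA and not protein, iron content or translation.

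The 10 genes did not differ in 1 direction. Slc40a1 was over 2-fold higher in the MLL1 KO array, and the other 9 genes differed by less than 1.5-fold. Among all 19938 genes, the share over 2-fold higher was 1.16% and the share over 2-fold lower was 0.110%, and the shares over 1.5-fold were 4.86% higher and 2.01% lower. Without regard to size, 6 of the 10 genes were higher and 4 were lower. Their median log2 difference was 0.12, beside -0.05 over all genes, of which 41.6% were higher and 55.6% were lower. The 9 genes other than Slc40a1 ranged from -0.30 to 0.33, with a median of 0.08. The plot of both signals of every gene shows this spread.

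**Figure D1:**
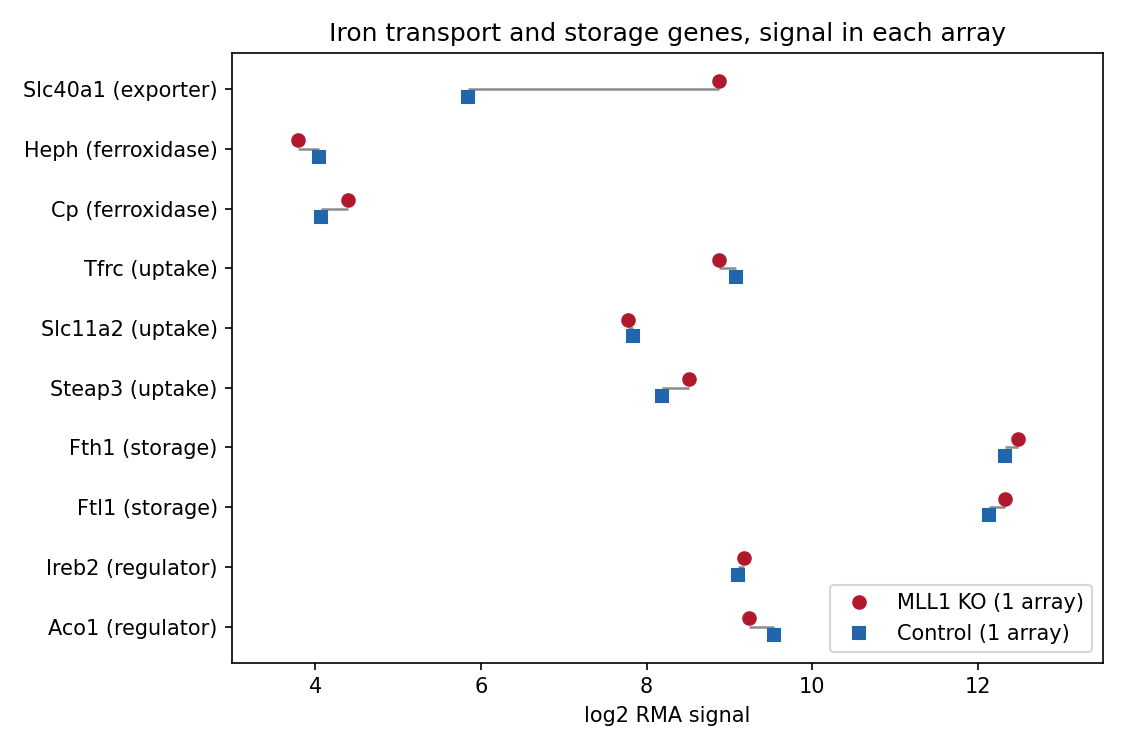
Log2 RMA signal (horizontal axis) of the 10 iron genes in the MLL1 KO array (red circles) and the Control array (blue squares), 1 array each, grouped by role. The 2 marks of Slc40a1 lie 3.03 log2 units apart, and those of the other 9 genes lie at most 0.33 apart.

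Slc40a1, the gene of the iron exporter ferroportin, had a log2 signal of 8.87 in MLL1 KO and 5.84 in Control. Its log2 difference of 3.03 is an 8.16-fold higher signal in MLL1 KO. Of the 28944 probe sets, 3 had a higher difference, and none of those 3 has a single gene symbol. Slc40a1 therefore had the highest difference of all genes that could be named. When all probe sets were ranked by mean signal and cut into 10 equal groups, none of the 2895 in the group of Slc40a1 had a difference larger in size.

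Probe sets with a similar Control signal were also described in the MLL1 KO array. This view restates the difference of Slc40a1, for which the group was chosen, and adds no separate support. Besides Slc40a1, 1754 probe sets had a Control signal within 0.25 log2 units of its own. In MLL1 KO these had a median signal of 5.71, and 40 of them were over 2-fold higher, beside 1.15% of all 28944 probe sets. None reached the MLL1 KO signal of Slc40a1, and the highest stood at 8.59.

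**Figure D2:**
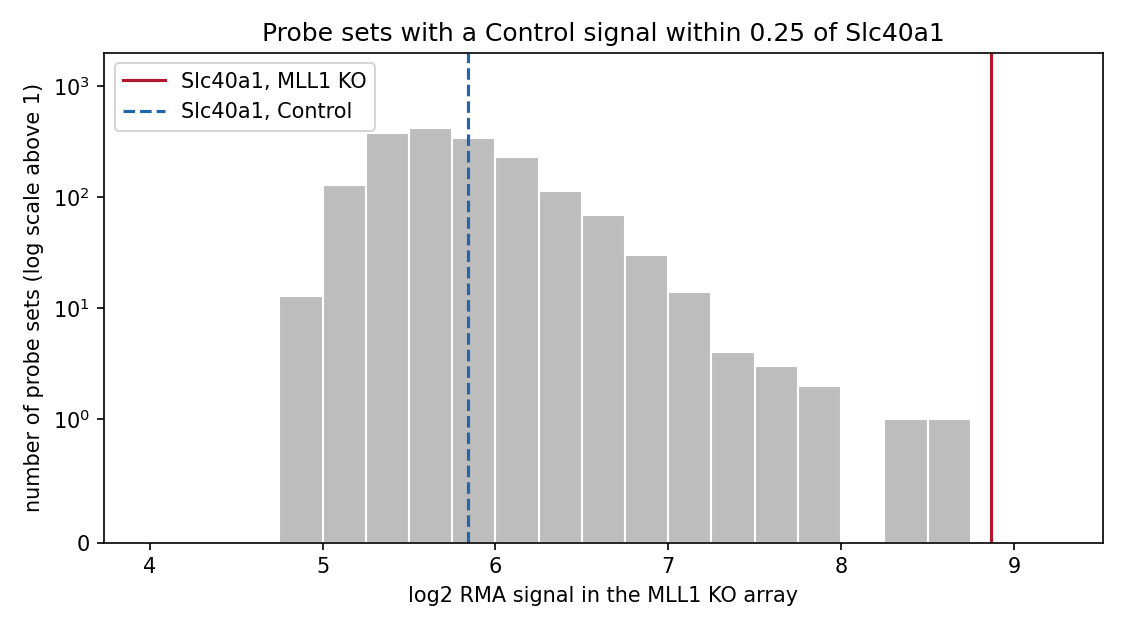
Number of probe sets (vertical axis, log scale above 1) by log2 RMA signal in the MLL1 KO array (horizontal axis), for the 1754 probe sets whose Control signal was within 0.25 of that of Slc40a1. The solid red line marks Slc40a1 in MLL1 KO at 8.87, to the right of every bar, and the dashed blue line marks Slc40a1 in Control at 5.84.

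The 5 named probe sets whose pair of signals lay nearest to that of Slc40a1, measured as straight-line distance over the 2 arrays, were those of Timp3, Sfrp2, Krt18, Uchl1 and Meg3. Timp3, an inhibitor of matrix proteases, was nearest at a distance of 0.37 log2 units, with signals of 8.59 in MLL1 KO and 5.60 in Control. Sfrp2, a secreted Wnt antagonist, followed at 0.58, with signals of 8.95 in MLL1 KO and 6.41 in Control. Krt18, a keratin, lay at 0.70, with 8.26 in MLL1 KO and 6.19 in Control. None of these genes handles iron, as far as is known. Uchl1, a ubiquitin hydrolase of neurons, and the imprinted noncoding RNA Meg3 lay at 0.75 and 0.85.

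The genes beside Slc40a1 on chromosome 1 did not share its difference. In the gene order of RefSeq (GRCm38.p6), the 5 measured genes on either side had log2 differences from -0.45 to 0.57. Of these 10 genes, 5 were higher, 5 were lower and none passed 1.5-fold. Among all genes, 41.6% were higher and 55.6% lower, and 4.86% were over 1.5-fold higher and 2.01% over 1.5-fold lower. A count of none in 10 is therefore near the share of all genes. Wdr75, which encodes a ribosome biogenesis factor and is the next measured gene on one side, had signals of 9.51 in MLL1 KO and 9.70 in Control. Col5a2 and Col3a1, the collagen genes beyond it, had log2 differences of -0.29 and -0.45. Gulp1, an adaptor gene of phagocytosis, had the highest difference at 0.57, with the dim signals of 4.39 in MLL1 KO and 3.82 in Control. Slc39a10, a zinc transporter gene 4 places away on the other side, had 9.20 in MLL1 KO and 9.16 in Control. Tmeff2, the next gene beyond it, had a log2 difference of 0.51, with 8.04 in MLL1 KO and 7.53 in Control. Also on that side, Dnah7b, Dnah7c and Stk-ps2 had dim signals and log2 differences of 0.36, 0.24 and -0.08.

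**Figure D3:**
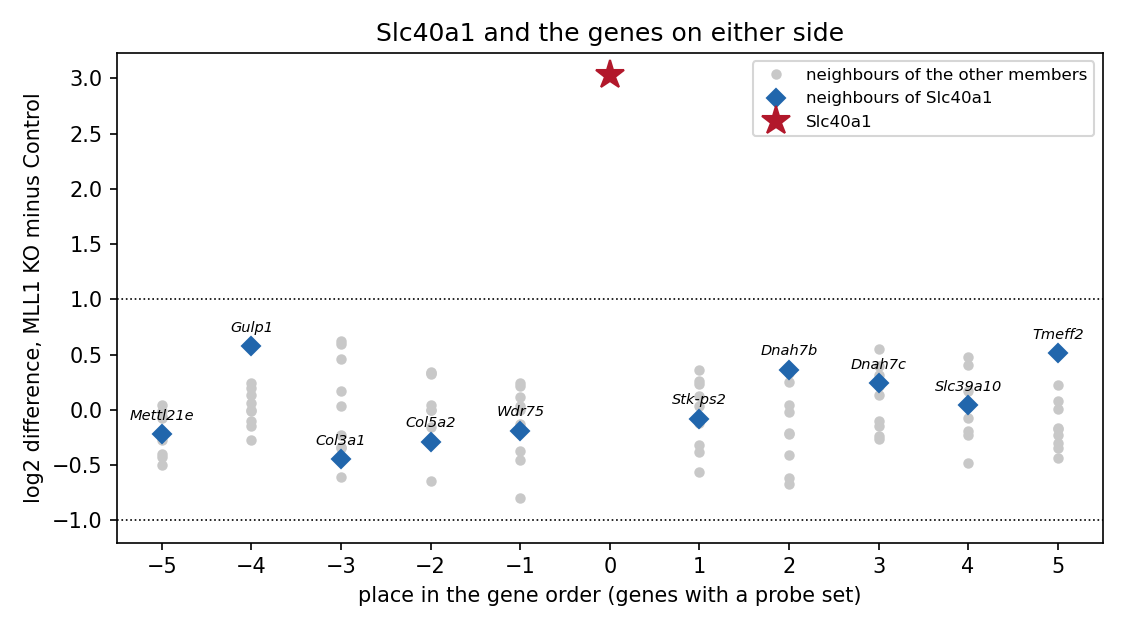
Log2 difference, MLL1 KO minus Control (vertical axis), of the 5 measured genes on either side of Slc40a1 (blue diamonds) and of those on either side of the other 9 iron genes (grey circles), by place in the gene order (horizontal axis). Slc40a1 (red star) stands at 3.03, all neighbours lie between -0.80 and 0.62, and dotted lines mark 2-fold.

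The neighbours of all 10 genes, 100 in number, also had no gene over 2-fold, beside 1.16% higher and 0.110% lower among all genes. Of these neighbours, 2 were over 1.5-fold higher and 5 over 1.5-fold lower, beside 4.86% and 2.01% of all genes. Their median log2 difference was -0.02. The largest was that of Incenp, a chromosomal passenger gene of mitosis next to Fth1, which was 1.74-fold lower with signals of 8.16 in MLL1 KO and 8.96 in Control. Tmem37, a membrane protein gene 3 places from Steap3, was 1.54-fold higher, with 8.28 in MLL1 KO and 7.65 in Control. Of the other 5 past 1.5-fold, Trim55, a muscle RING-finger gene near Cp, was 1.51-fold higher. The 4 lower ones, Slc51a and Tnk2os near Tfrc, Lhb near Ftl1 and Marco near Steap3, were 1.52-fold to 1.59-fold lower. These 4 had dim signals, none above 6.17 in either array, and Slc51a, Marco and Tnk2os fell among groups of similar signal whose median log2 differences were -0.17, -0.22 and -0.18.

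The ferroxidase genes, whose products work with ferroportin, had low signals in both arrays and differed in opposite directions. Heph had a log2 signal of 3.79 in MLL1 KO and 4.04 in Control, a log2 difference of -0.25. Cp had 4.39 in MLL1 KO and 4.07 in Control, a log2 difference of 0.32. All 4 values lie below the median signal of their array, and the files give no detection call. Among the 2893 probe sets of similar mean signal the median log2 difference was -0.17, so Heph lay near it, with 34.5% of these probe sets lower. Cp lay high among them, with 95.9% lower. When the trend of the difference on signal was removed, Cp had 0.50 and Heph -0.09.

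The 3 uptake genes differed little. Tfrc, the transferrin receptor, had a log2 signal of 8.87 in MLL1 KO and 9.08 in Control and was 1.16-fold lower. Its difference was exceeded in size, in either direction, by 43.7% of the 2894 probe sets of similar brightness. Slc11a2, the divalent metal transporter of endosomes, had 7.78 in MLL1 KO and 7.83 in Control, a log2 difference of -0.05 whose sign turned to plus once the median of all differences was set to 0. Steap3, the endosomal ferrireductase, had 8.51 in MLL1 KO and 8.18 in Control and was 1.25-fold higher, the largest difference in size among the genes other than Slc40a1. Even so, 32.0% of the 2894 probe sets with similar signals differed by more.

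Both ferritin genes were slightly higher in MLL1 KO. Fth1, the heavy chain with the ferroxidase centre, had a log2 signal of 12.48 in MLL1 KO and 12.32 in Control and was 1.12-fold higher. Ftl1, the light chain, had 12.32 in MLL1 KO and 12.13 in Control and was 1.15-fold higher. Among the 2895 probe sets of the brightest group, 44.2% differed by more than Fth1 and 34.9% by more than Ftl1. A further 4 probe sets are annotated to Ftl1 together with the microRNA genes Mir692-2 and Mir692-3, and were not counted because they have several symbols. Their log2 differences ran from 0.24 to 0.38, or 1.18-fold to 1.30-fold higher. All 5 probe sets carry the name of Ftl1, so they are not readings of separate genes, and cross-hybridisation with ferritin pseudogene copies was not tested.

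The promoters of the ferritin genes are printed because these 2 genes lay in the same direction at similar size. Both differences were small among probe sets of similar brightness, as given above, and any part of the promoters in them was not tested. The RefSeq table (GRCm38.p6) holds 13 promoter windows for 7 of the 10 genes, namely Aco1, Cp, Fth1, Ftl1, Ireb2, Steap3 and Tfrc. Shown are the 100 bases before the start of Ftl1 (chr7:45459887-45459986, minus strand) and before the more downstream of 2 annotated starts of Fth1 (chr19:9982546-9982645, plus strand). Capitals mark the CCAAT box, the recognition sequence of the factor NF-Y, here in its reverse orientation ATTGG.
Fth1: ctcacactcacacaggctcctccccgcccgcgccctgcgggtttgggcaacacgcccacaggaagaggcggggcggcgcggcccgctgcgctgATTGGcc
Ftl1: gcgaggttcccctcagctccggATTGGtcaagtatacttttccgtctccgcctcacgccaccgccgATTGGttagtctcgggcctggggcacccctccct
The stretch of Fth1 holds 1 such box and that of Ftl1 holds 2. Searched on both strands of the 250 bases before each start, CCAAT was found in 5 of the 13 windows, belonging to Cp, Fth1, Ftl1, Steap3 and Tfrc, and in 33.8% of all 32851 windows of the table. GGGCGG, the GC box bound by SP1 factors, was found in 7 of the 13 windows, belonging to Aco1, Fth1, Ftl1, Ireb2, Steap3 and Tfrc, and in 32.7% of all. TGACNNNGC, a core of the antioxidant response element bound by NRF2, and CACGTG, an E box, were in none of the 13 windows, and in 10.2% and 6.02% of all windows. TGCACNC or TGCGCNC, the core of the metal response element bound by MTF1, was found in 1 window, of Tfrc, and in 21.4% of all. A match is a run of letters and not a measured binding site. Bases further upstream were not searched, so the lack of a match does not show that a gene lacks the element. Slc40a1, Slc11a2 and Heph had no window and were not searched at all.

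The genes of the iron regulatory proteins differed in opposite directions by less than 1.25-fold. Aco1, which encodes the cytosolic aconitase that becomes IRP1 when it loses its iron-sulphur cluster, had a log2 signal of 9.23 in MLL1 KO and 9.53 in Control. It was 1.23-fold lower, the lowest difference of the 10 genes, and 11.2% of the 2894 probe sets with similar signals were lower still. Ireb2, which encodes IRP2, had 9.18 in MLL1 KO and 9.10 in Control and was 1.05-fold higher. Of the similar probe sets, 77.3% differed by more than Ireb2. The plot of the differences against signal places each gene among the probe sets of similar brightness.

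**Figure D4:**
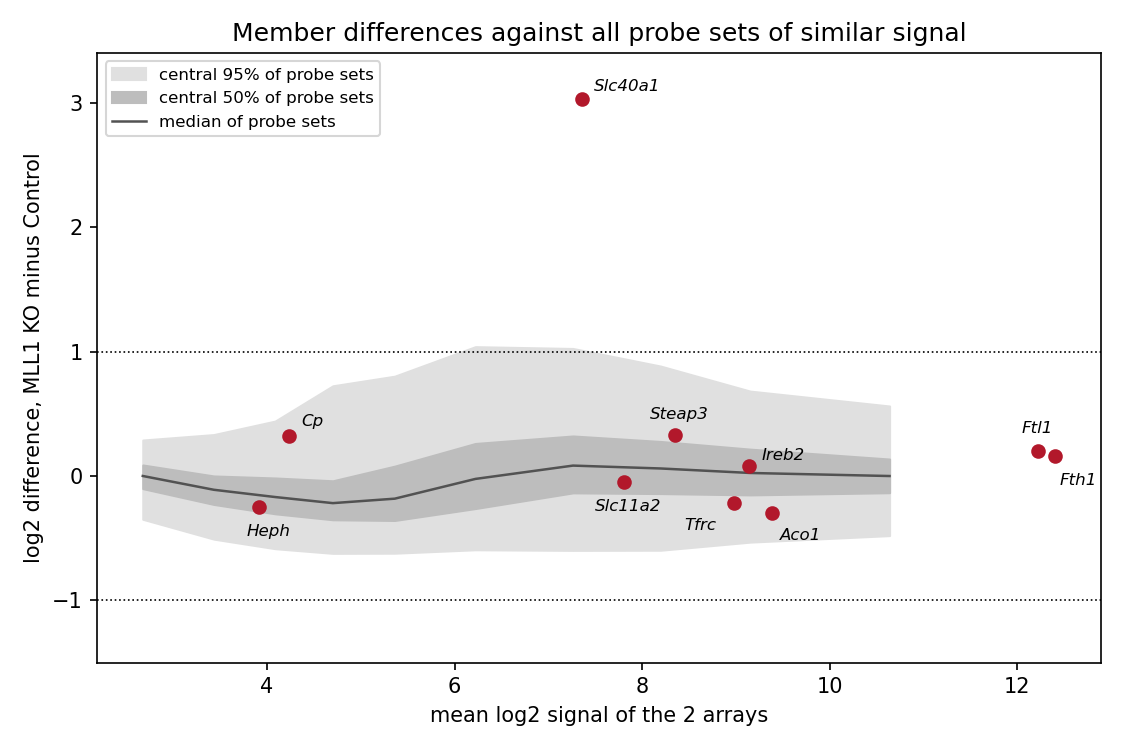
Log2 difference, MLL1 KO minus Control (vertical axis), against mean log2 signal (horizontal axis) of the 10 iron genes (red points). Grey bands hold the central 95% and 50% of probe sets in each of 10 groups of similar mean signal, drawn at the median signal of the group, so they end before the 2 ferritin genes. Slc40a1 lies at 3.03, above the bands and the dotted 2-fold line, and the other 9 genes lie within the central 95% of their group.

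Genes outside the 10 that handle iron, haem or copper, or whose products need iron, were read from 13 lists. Of 160 genes listed there, 151 were measured with a single symbol. None passed 2-fold, beside 1.16% higher and 0.110% lower among all genes. Of these 151 genes, 9 lay over 1.5-fold higher and 3 over 1.5-fold lower, beside shares of 4.86% and 2.01% among all genes. By sign alone they divided into 75 higher and 76 lower genes, beside 41.6% higher and 55.6% lower among all genes. These shares of all genes, over 1.5-fold and by sign, also stand beside the counts of each list below.

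Haem breakdown and transport held 2 genes of 13 over 1.5-fold, both higher, beside 4.86% of all genes. Hmox1, the haem oxygenase that frees iron from haem, had a log2 signal of 10.62 in MLL1 KO and 9.73 in Control and was 1.85-fold higher. Slc48a1, which moves haem out of endosomes and lysosomes, had 11.01 in MLL1 KO and 10.27 in Control and was 1.67-fold higher. In macrophages, these products and ferroportin act one after another in recycling the iron of haem. Slc46a1, a folate and haem carrier, was 1.46-fold higher, and Blvrb, a biliverdin reductase, was 1.25-fold higher. Blvra, the main biliverdin reductase, had a log2 difference of -0.58, with 7.15 in MLL1 KO and 7.73 in Control. The list divided into 7 higher and 6 lower genes of 13 measured, and its median was 0.04.

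Haem synthesis had no gene over 1.5-fold, with 5 higher and 5 lower of 10 and a median of -0.02. Its largest difference was that of Cpox, coproporphyrinogen oxidase, which was 1.37-fold lower with 7.44 in MLL1 KO and 7.89 in Control. Of 13 other genes of iron uptake and reduction, 1 was over 1.5-fold, namely Slc22a17, a receptor for the siderophore-binding protein lipocalin 2. It had 8.07 in MLL1 KO and 7.30 in Control and was 1.69-fold higher. The zinc and iron importer Slc39a14 was 1.03-fold higher, and the median of this list was -0.02.

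Among 10 other genes of ferritin and of iron handling in the cytosol, Pcbp3 was 1.73-fold higher, with 9.19 in MLL1 KO and 8.40 in Control. It is a relative of the iron chaperones PCBP1 and PCBP2. Ncoa4, the receptor that takes ferritin to the lysosome, was 1.09-fold higher, and Fbxl5, which marks IRP2 for degradation, was 1.02-fold lower. The list had 5 higher and 5 lower members and a median of -0.01.

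Hepcidin, the hormone that removes ferroportin from the cell surface, and its regulators formed a list of 13 measured genes. Hjv, the BMP co-receptor hemojuvelin of liver and muscle, was 1.55-fold higher, with 7.69 in MLL1 KO and 7.06 in Control. Hamp itself had the low signals of 2.76 in MLL1 KO and 2.69 in Control. This list divided into 6 higher and 7 lower genes, and its median was -0.03. Among 5 other genes whose mRNAs carry iron-responsive elements, 1 lay higher and 4 lay lower (median -0.10, and -0.0049 without the trend on signal). Of these 5 genes, Alas2, Epas1 and Hao1 had dim signals, none above 5.03 in either array. The largest difference of this list was that of Alas2, the erythroid enzyme of haem synthesis, which was 1.15-fold lower.

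Copper genes were listed because the ferroxidases need copper. Slc31a2, which encodes a copper transporter of intracellular vesicles, had 9.15 in MLL1 KO and 8.34 in Control and was 1.75-fold higher. The list held 4 higher and 3 lower genes of 7 measured. Its median was 0.21, and 0.11 when quantile normalization was repeated.

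Iron-sulphur cluster assembly showed differences in both directions. In mitochondria, 9 of 20 genes lay higher and 11 lower, none over 1.5-fold (median -0.01). Glrx5, a glutaredoxin of cluster transfer, was 1.44-fold lower, the largest difference of that list. In the cytosol, 5 of 9 genes lay higher and 4 lower (median 0.02, with a sign that turned under 2 of 3 scalings), and Nubp2, a scaffold protein, was 1.63-fold higher.

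Enzymes of DNA synthesis and repair that use iron or an iron-sulphur cluster were mostly lower in MLL1 KO, 11 of 13 measured. Among all genes, 55.6% were lower. The log2 differences of the 13 enzyme genes had a median of -0.41, beside -0.05 for all genes. Dna2, a nuclease and helicase, had 7.17 in MLL1 KO and 7.99 in Control and was 1.78-fold lower. Brip1, a repair helicase, was 1.55-fold lower, with 7.21 in MLL1 KO and 7.85 in Control. Rrm2, the iron-bearing subunit of ribonucleotide reductase, was 1.33-fold lower, with 11.25 in MLL1 KO and 11.66 in Control. Rrm2b, its counterpart outside S phase, was 1.28-fold higher. Several of these enzymes also take part in the DNA replication of dividing cells. The study reports reduced proliferation of Mll1-deleted myoblasts, and its part in these differences was not tested.

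Iron-dependent oxygenases of oxygen sensing and collagen modification had 9 higher and 4 lower genes of 13, none over 1.5-fold, and a median of 0.08. Among all genes, 41.6% were higher and 55.6% lower. P4ha3, a collagen prolyl hydroxylase, had the largest difference of the oxygenase list and was 1.45-fold higher. The 14 transcription factor genes that act on iron genes divided into 6 higher and 8 lower ones, with a median of -0.05. Nfe2l2, which encodes NRF2, was 1.11-fold higher and Bach1, a repressor of Hmox1 and of ferritin and ferroportin genes, was 1.06-fold higher. Mtf1, the metal-responsive factor, had the largest difference, with 8.40 in MLL1 KO and 8.01 in Control, and was 1.31-fold higher.

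Ferroptosis is a form of cell death by iron-dependent lipid oxidation. Of 15 genes of ferroptosis and glutathione, a list that also holds Tfrc and Nfe2l2, 11 lay higher and 4 lower (median 0.09). Among all genes, 41.6% were higher and 55.6% lower, and 4.86% were over 1.5-fold higher and 2.01% over 1.5-fold lower. Gch1, which makes the precursor of the antioxidant tetrahydrobiopterin, was 1.87-fold higher, with 5.96 in MLL1 KO and 5.05 in Control. Gss, glutathione synthetase, had 8.47 in MLL1 KO and 7.69 in Control and was 1.72-fold higher. Alox15, a lipoxygenase, was 1.51-fold lower, with the dim signals of 4.22 in MLL1 KO and 4.82 in Control.

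**Figure D5:**
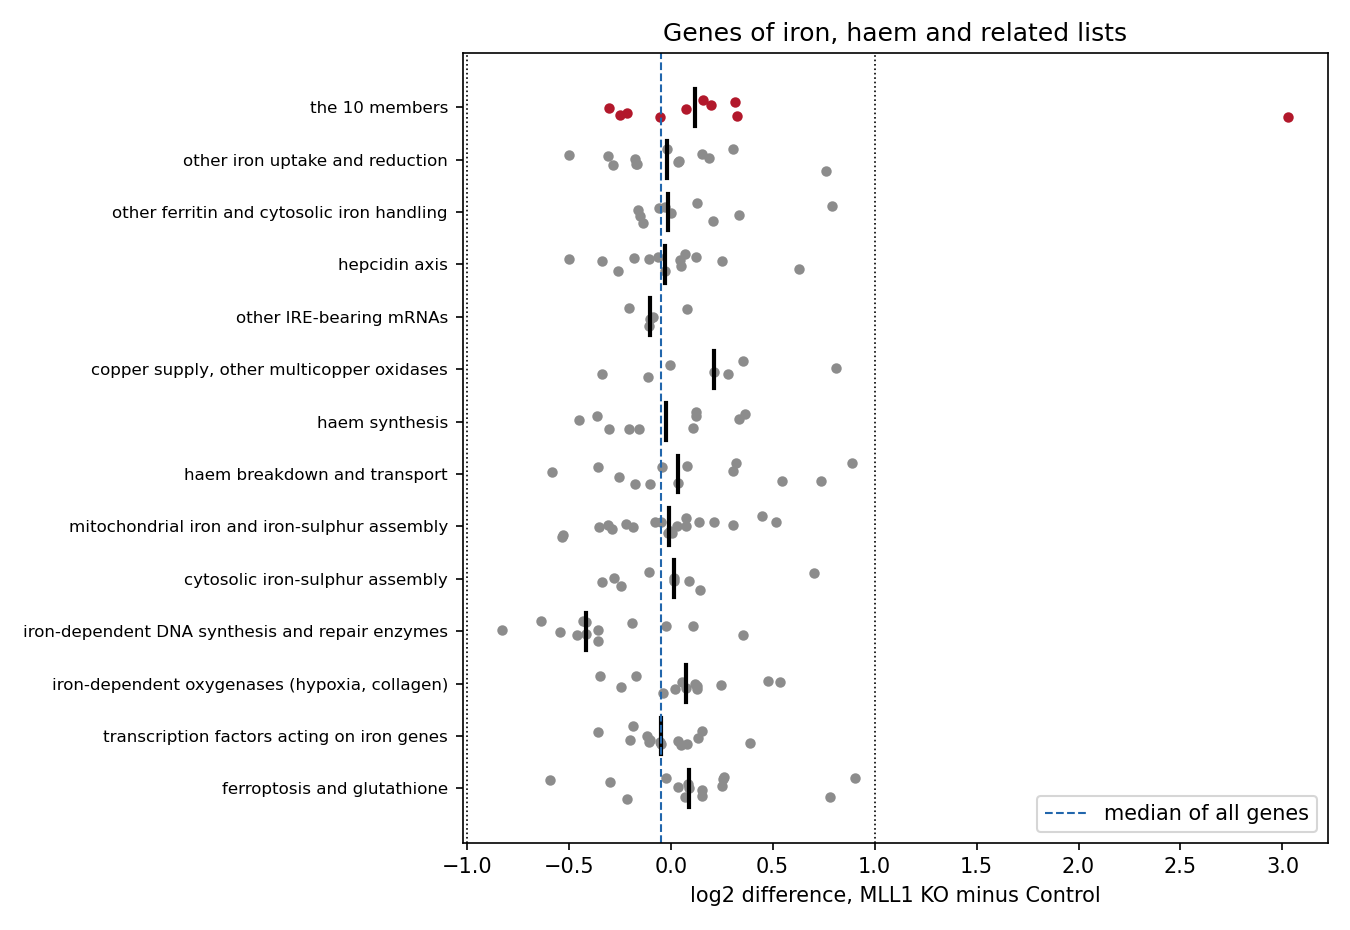
Log2 difference, MLL1 KO minus Control (horizontal axis), of each measured gene of the 10 iron genes (red) and of the 13 lists (grey), with the median of each list as a black bar. The dashed blue line is the median of all genes, -0.05, dotted lines mark 2-fold, and Slc40a1 is the only point beyond them.

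Ferroportin is also made by macrophages and by some other cells that a muscle culture can hold, so markers of those cells were read beside Slc40a1. The study's methods derive primary myoblasts by magnetic selection against CD11b, SCA1, CD45 and CD31 and then for alpha7-integrin, steps meant to remove macrophages, endothelial cells and SCA1-bearing fibroblasts. Of 16 macrophage markers, 14 were lower in MLL1 KO and 2 were higher, beside 55.6% lower and 41.6% higher among all genes. Their median log2 difference was -0.23, and -0.05 once the trend of the difference on signal was removed. Groups of dim probe sets, as given above, had medians below 0 as a whole. Their log2 signals ran between 3.24 and 7.47 in MLL1 KO (median 4.05) and between 3.48 and 6.08 in Control (median 4.33). Of the lower ones, Adgre1, Csf1r and Ptprc had 3.24, 4.28 and 3.69 in MLL1 KO, against 3.48, 4.52 and 3.83 in Control. The 2 higher ones were Cd68 at 2.62-fold and Laptm5 at 1.47-fold, and both encode lysosomal proteins.

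Of 10 endothelial markers, 9 were lower and none was higher, beside 55.6% lower and 41.6% higher among all genes. The same shares stand beside the other marker counts here. Signals of the endothelial markers lay between 3.64 and 5.28 in MLL1 KO and between 3.64 and 5.65 in Control. Their median log2 difference was -0.25, and -0.08 without the trend. Of 5 measured erythroid markers, 4 were lower, and the higher one, the erythropoietin receptor gene Epor, was 1.42-fold higher. The median was -0.21, and -0.0049 without the trend. Of 5 glial markers, 4 were lower and none was higher, with a median of -0.23, and of -0.09 without the trend. Of 12 listed fibroblast markers, 11 were measured with a single symbol. Of these, 9 lay lower and 2 higher (median -0.23, and -0.20 without the trend). The higher ones were Dcn and Cd34, a sialomucin of several progenitor types, and Cd34 was 2.40-fold higher. Dcn had the dim signals of 4.79 in MLL1 KO and 4.44 in Control. Of the 9 lower ones, Pi16 was 1.58-fold lower and Dpt 1.47-fold lower, both with dim signals. Col3a1, also lower, had 7.67 in MLL1 KO and 8.12 in Control, the highest signals of the list. The marker left out of these counts was Ly6a, the gene of SCA1, which the study lists among the genes upregulated on its arrays after Mll1 deletion. The part of any such cells in the Slc40a1 signal was not tested further, and in bulk RNA a change in the number of cells and a change in RNA per cell cannot be told apart.

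The label of the cells was checked against 12 myoblast markers. Myod1, the myogenic regulator, had 12.27 in MLL1 KO and 12.15 in Control, and the intermediate filament gene Des had 11.49 in MLL1 KO and 11.58 in Control. The list had 3 higher and 9 lower genes (median -0.16), beside 41.6% higher and 55.6% lower among all genes. Myf5, another myogenic regulator, was over 2-fold lower with 6.14 in MLL1 KO and 9.51 in Control. Msc, Vcam1, Itga7 and Pax7 were also lower, with log2 differences of -0.53, -0.46, -0.39 and -0.27. Msc and Chodl had dim signals in both arrays. Of 10 reference genes none passed 1.5-fold, and their median log2 difference was -0.01, with a sign that turned under centring.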

How the data were processed

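Total RNA of 1 MLL1 KO and 1 Control myoblast culture was measured on Affymetrix MoGene 1.0 ST arrays. The log2 signals of 35557 probe sets deposited by the authors had been made from raw intensities by RMA in R (Bioconductor). Genome build and software version are not given in the sources used here. As array controls, the 6613 lowest probe set numbers, an unbroken run of whole numbers without annotation, were left out, which leaves 28944. Symbols came from the platform annotation, updated by gene number to RefSeq (GRCm38.p6). A single symbol was held by 21789 probe sets, several by 1621 and none by 5534, and only the first were named. For genes with several probe sets the mean was used. No column was left unused.

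Named are the 10 genes, in each of the 13 pathway lists any gene past 2-fold and otherwise the one with the largest difference, neighbours past 1.5-fold and the 5 probe sets nearest to Slc40a1. Other list genes, other neighbours of Slc40a1 and single markers were named after their values had been seen. The genes and lists were chosen with earlier results of these data known. Precision is limited by the number of arrays, 1 per condition, which allows no test. The calculations were tested on simulated data with known changes. Alternative settings were a 1.5-fold or 3-fold cut-off, a minimum of 7 for the higher signal, a mean signal over 6, control probe sets kept, the mean for the median, differences centred on their median, a lowess trend removed (span 0.3) and quantile normalization repeated. Scripts ran under Python 3.11.15 and used statsmodels 0.14.6, pandas 2.3.3, numpy 2.4.6, scipy 1.17.1 and matplotlib 3.10.9.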

Additional observations from a re-analysis of the deposited data

How the results depend on the processing

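The difference of Slc40a1 stayed between 2.98 and 3.09 on the log2 scale under centring, trend removal and repeated quantile normalization, and it was the 1 gene of the 10 past the cut-off at 1.5-fold, 2-fold and 3-fold. The median log2 difference of the 10 genes ran from 0.09 to 0.18 in them, and their mean in place of the median was 0.33. For the 151 other genes, the median of -0.0019 turned to 0.057 under centring and to 0.019 with the trend removed. With the trend removed 1 of them, Gch1, was over 2-fold at a log2 difference of 1.06. With a cut-off of 1.5-fold and no rescaling, 12 of them passed, 9 higher and 3 lower, beside 4.86% and 2.01% of all genes. Of 20 list medians, marker and reference lists included, 7 changed sign under centring, 6 with the trend removed and 1 after quantile normalization, and Slc11a2 changed sign under centring alone. None of the 10 genes beside Slc40a1 on the chromosome passed 2-fold under any of these 3 settings, which were added for them after seeing the data. Without rescaling, 1.16% of all genes passed 2-fold higher and 0.110% lower. With the array controls included, the share of probe sets over 2-fold higher was 2.62%, against 1.15% without them, and that over 2-fold lower was 0.219%. No paired analysis was possible because each condition has 1 array. For the same reason no array could be left out, and the variation between cultures is unknown. Depth has no count here, and Heph and Cp are limited by their dim signals.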
